A study of Rattus norvegicus with 12 samples.

Results

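Proteins of the Bcl2 family set whether the mitochondrial outer membrane of a cell is opened, and 10 of their genes were followed here in INS-1 832/13 cells, an insulin-secreting line grown from a rat insulinoma. The genes were chosen by name from the table of read counts: 8 BH3-only genes (Bmf, Bcl2l11, Bbc3, Pmaip1, Hrk, Bik, Bid and Bad) and the pro-survival genes Mcl1 and Bcl2. Of these 10, 7 have a row among the 28727 named rows of the table. No row analysed here carries the name Bbc3, Hrk or Mcl1, so these 3 were not analysed. Pmaip1 has a row with 0 counts in all 12 libraries, and the other 6 passed the filter on low counts and were tested. The cells had been transduced with an adenovirus expressing GFP, the control, or mCherry-tagged mouse ChREBPβ, and kept in glucose at 2 mM or at 11 mM for 48 h, which gave 4 groups of 3 libraries each, with the letters a, b and c. ChREBPβ is the short, constitutively active isoform of the carbohydrate response element binding protein, the product of Mlxipl, and the comparison addressed how its overexpression bears on proliferation against death in β-cells. The time is that of the series description, and the study's general protocol for adenovirus gives longer times after transduction and in glucose. All cells came from a single insulinoma line and all carried a virus, so no group was without adenovirus.

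A BH3-only protein carries a short helix, the BH3 domain, that fits into a groove of pro-survival proteins such as Bcl2 and Mcl1. When BH3-only proteins outnumber the free pro-survival grooves, the effectors Bax and Bak1 form pores, cytochrome c leaves the mitochondria and caspases are activated. Cells control the different BH3-only proteins in different ways: Bmf and Bim (the product of Bcl2l11) are held by dynein light chains, Bad is kept inactive by phosphorylation and 14-3-3 proteins, Bid must be cut by a caspase, and Puma (Bbc3), Noxa (Pmaip1), Hrk and Bik are controlled largely through their transcription. In β-cells this pathway is among those by which long exposure to high glucose is known to kill.

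Promoter sequences are shown for the 2 BH3-only genes that rose with ChREBPβ, Bmf and Bcl2l11, and for Bad, which holds the same FoxO motif as Bcl2l11. Each runs 5′ to 3′ over 300 bases around the RefSeq start site (assembly GRCr8), and capitals mark GTAAACA on either strand, the core letters to which FoxO factors bind. The Bmf window is chr3:125974015-125974314 on the minus strand, the Bcl2l11 window is chr3:135819792-135820091 on the plus strand, and the Bad window is chr1:213562864-213563163 on the plus strand.
Bmf: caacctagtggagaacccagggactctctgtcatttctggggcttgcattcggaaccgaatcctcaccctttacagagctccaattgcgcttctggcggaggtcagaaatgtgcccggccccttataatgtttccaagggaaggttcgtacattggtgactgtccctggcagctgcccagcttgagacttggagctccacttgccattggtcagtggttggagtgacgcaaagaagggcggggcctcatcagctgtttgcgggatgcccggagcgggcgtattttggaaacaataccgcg
Bcl2l11: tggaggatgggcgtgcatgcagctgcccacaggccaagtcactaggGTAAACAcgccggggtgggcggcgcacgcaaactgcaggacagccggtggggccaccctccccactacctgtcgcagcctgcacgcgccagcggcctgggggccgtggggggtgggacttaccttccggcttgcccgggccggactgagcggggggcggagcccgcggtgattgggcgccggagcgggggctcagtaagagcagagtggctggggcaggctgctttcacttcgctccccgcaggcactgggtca
Bad: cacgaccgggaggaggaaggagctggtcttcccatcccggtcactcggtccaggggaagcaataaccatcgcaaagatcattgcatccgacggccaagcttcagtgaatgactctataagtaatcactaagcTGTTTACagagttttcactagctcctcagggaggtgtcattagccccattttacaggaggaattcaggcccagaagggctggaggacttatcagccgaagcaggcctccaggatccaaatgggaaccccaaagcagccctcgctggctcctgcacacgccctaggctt
RefSeq gave such a window for 8 of the 10 genes, and for Bbc3 and Bik none was found. The E-box CACGTG is the consensus for each arm of the element that ChREBP binds with its partner Mlx. None of the 8 windows held it on either strand (it reads the same on both). Over all genes, 6.42% of 33469 windows of the same length held it, so its absence from 8 windows does not set these genes apart. A pair of E-boxes 5 bases apart was in 0.00299% of all windows. GTAAACA was in 2 of the 8 windows and in 3.78% of all windows. In Bcl2l11 its first base lies on the gene's own strand at position -204, counted from the start site, and in Bad the match is on the opposite strand at position -118. These matches describe the letters in each window only, and no binding was measured. Only exact letters were searched, so a site with other letters or outside the window would be missed.

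The libraries held 25754488 to 60531215 counts on named genes, and every pair of libraries of a group differed by more than sampling noise, so none was counted as a repeat of another. Levels are given as counts per 1000000 counts of the library (CPM), scaled by TMM factors, which centre the changes near the bulk of the genes. RNA was amplified before sequencing, so counting limits cover counting error only. Rat Mlxipl fell in the libraries labelled ChREBPβ at 2 mM (log2 fold change -0.33, adjusted p = 2.03e-05) and was at -0.14 at 11 mM, so this row does not show the mouse transgene. A row named ChREBPb, whose counted sequence is not stated in the sources used here, was at 0.21 at 2 mM (edgeR adjusted p = 0.00841), under the 1.2-fold minimum set for a call, and at 11 mM was called at 0.37 (edgeR adjusted p = 6.90e-05). In what follows, ChREBPβ stands for the libraries labelled so. Txnip, a direct target of ChREBP, rose by 4.12 on the log2 scale at 2 mM and by 0.93 at 11 mM. All 9 β-cell markers were detected, and their summed level was 23270 to 26190 CPM with GFP at 2 mM, 18920 to 20780 with GFP at 11 mM, 12580 to 13000 with ChREBPβ at 2 mM and 11900 to 12470 with ChREBPβ at 11 mM. Markers of other islet endocrine cells, nearly all of it Gcg, summed to 1590 to 1720 CPM with GFP and 431 to 503 with ChREBPβ. Over the libraries with GFP and those with ChREBPβ, the endothelial sum was 1.07 to 1.86 and 0.512 to 1.15 CPM, the immune sum 0.268 to 0.613 and 0.561 to 1.18, and the fibroblast sum 4.06 to 8.81 and 3.39 to 4.58. The exocrine list summed to at most 0.0731 CPM, and Prss1, Ptprc and Dcn were at 0 in all libraries. The part of these differences in the results given here was not tested.

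With ChREBPβ, Bmf, Bcl2l11 and Bcl2 rose and Bik fell at both glucose levels, while Bid and Bad did not pass the test. A gene was called where edgeR's quasi-likelihood test gave a Benjamini-Hochberg adjusted p under 0.05 over the 14669 genes tested and the change was at least 1.2-fold. At 2 mM, 4 of the 6 tested members were called against 44.1% of all tested genes: 3 were higher, against 21.0% of all genes, and 1 was lower, against 23.2%. At 11 mM, 4 of 6 were called against 33.4% of all genes, again 3 higher (14.3% of all genes) and 1 lower (19.1%). The median log2 fold change of the 6 members was 0.30 at 2 mM and 0.28 at 11 mM, beside -0.017 over all tested genes at either glucose level. When library totals replaced the TMM factors, the median of all genes moved to -0.12 at 2 mM and -0.10 at 11 mM, and the share of called genes that were higher went from 47.5% to 33.2% and from 42.9% to 29.3%.

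**Figure D1:**
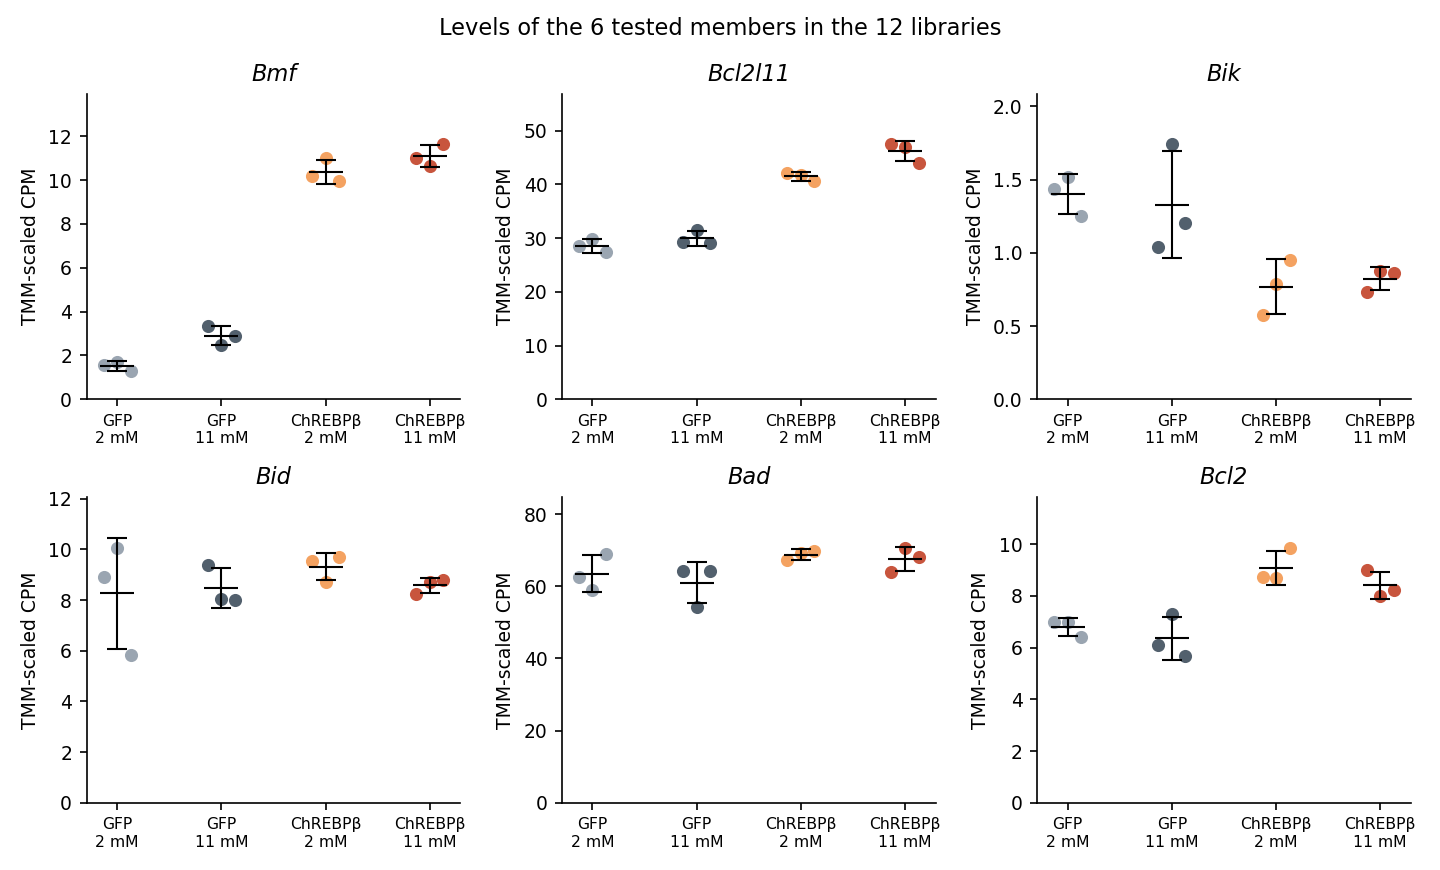
Levels of the 6 tested members in TMM-scaled CPM (vertical axis, from 0) in the 4 groups (horizontal axis). Points are single libraries a, b and c from left to right, and bars give the mean ± SD of 3 libraries. Bmf lies at 9.96 to 11.6 CPM in the 6 libraries labelled ChREBPβ and at 1.28 to 3.34 in the 6 labelled GFP, whereas for Bid and Bad the points of the viruses overlap at each glucose level.

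Bmf, whose product is released from the cytoskeleton and binds Bcl2 and its relatives, showed the greatest change of the 6 members. In GFP-treated cells its level was 1.58, 1.69 and 1.28 CPM in 2 mM glucose and 3.34, 2.49 and 2.88 CPM in 11 mM glucose. In ChREBPβ-treated cells it was 10.2, 11.0 and 9.96 CPM in 2 mM glucose and 11.0, 10.6 and 11.6 CPM in 11 mM glucose. Every library labelled ChREBPβ was above every library labelled GFP, and among the GFP libraries those at 11 mM were above those at 2 mM. The counts behind these levels were 40 to 58 reads per library in the lowest group and 606 to 645 in the highest. ChREBPβ raised it by 2.77 on the log2 scale in 2 mM glucose (standard error, SE, 0.13, 95% interval 2.50 to 3.05, edgeR adjusted p = 5.33e-13), a 6.83-fold rise. The rise in 11 mM glucose was 1.92 (SE 0.11, 95% interval 1.70 to 2.15, edgeR adjusted p = 1.39e-11), a 3.80-fold rise. Of all tested genes, 1.19% changed by more at 2 mM and 1.70% at 11 mM. Taken alone, the Bmf levels gave p = 0.1 in an exact two-sided permutation test at each glucose level, the smallest that 3 against 3 libraries allow. In bulk RNA, more transcript per cell and a larger share of expressing cells cannot be told apart, for Bmf and for every gene that follows.

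Bcl2l11, which encodes Bim, a BH3-only protein able to bind every pro-survival relative of Bcl2, rose less than Bmf. The 3 libraries of GFP-treated cells held 28.5, 29.9 and 27.3 CPM in 2 mM glucose and 29.2, 31.5 and 29.0 CPM in 11 mM glucose. Those of ChREBPβ-treated cells held 42.2, 41.7 and 40.6 CPM in 2 mM glucose and 47.4, 47.0 and 44.0 CPM in 11 mM glucose. The GFP groups overlapped each other, and all libraries labelled ChREBPβ lay above them. The log2 fold change was 0.54 at 2 mM (SE 0.05, 95% interval 0.42 to 0.65, edgeR adjusted p = 6.15e-08) and, in 11 mM glucose, 0.63 (SE 0.05, 95% interval 0.52 to 0.74, edgeR adjusted p = 5.27e-09). On the current assembly Bcl2l11 overlaps the gene Acoxl, whose row held 0 to 8 counts per library, and the strand used in counting is not stated in the sources used here.

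Bik, a BH3-only protein of the endoplasmic reticulum membrane, changed in the other direction and was the least counted member tested, with 16 to 65 reads per library. GFP-treated cells had 1.43, 1.52 and 1.25 CPM of Bik in 2 mM glucose and 1.04, 1.74 and 1.21 CPM in 11 mM glucose. ChREBPβ-treated cells had 0.573, 0.784 and 0.949 CPM in 2 mM glucose and 0.733, 0.877 and 0.859 CPM in 11 mM glucose. The groups did not overlap at either glucose level, although library b of GFP at 11 mM stood above the other 2 of its group. Bik fell by 0.82 on the log2 scale in 2 mM glucose (SE 0.26, 95% interval -1.36 to -0.28, edgeR adjusted p = 0.0108) and, in 11 mM glucose, by 0.68 (SE 0.24, 95% interval -1.19 to -0.17, edgeR adjusted p = 0.0271). The call at 11 mM was lost without library b of GFP at 11 mM (-0.45, adjusted p = 0.175) and without library a of ChREBPβ at 11 mM (-0.60, adjusted p = 0.0831).

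Bid, which links death receptors to the mitochondria once caspase-8 has cut it, was measured at 8.93, 10.1 and 5.83 CPM in GFP-treated cells in 2 mM glucose and at 9.40, 8.06 and 8.02 CPM in 11 mM glucose. In ChREBPβ-treated cells its values were 9.56, 8.70 and 9.72 CPM in 2 mM glucose and 8.25, 8.74 and 8.78 CPM in 11 mM glucose. All 4 groups overlapped, and library c of GFP at 2 mM was the lowest of the 12. The log2 fold change was 0.17 at 2 mM (95% interval -0.12 to 0.45, edgeR adjusted p = 0.301) and 0.01 at 11 mM (95% interval -0.25 to 0.28, edgeR adjusted p = 0.936). Without library b of GFP at 2 mM, the highest of its group, the difference at 2 mM was 0.35 and was called (adjusted p = 0.0413).

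Bad, the BH3-only protein that survival kinases hold inactive and that also joins glucokinase in a complex at β-cell mitochondria, was measured at 62.6, 58.9 and 68.9 CPM in GFP-treated cells in 2 mM glucose and at 64.2, 54.4 and 64.4 CPM in 11 mM glucose. The ChREBPβ-treated cells gave 67.2, 69.3 and 69.9 CPM in 2 mM glucose and 64.1, 70.6 and 68.1 CPM in 11 mM glucose. The groups overlapped at both glucose levels. Its log2 fold change was 0.12 at 2 mM (95% interval -0.02 to 0.25, edgeR adjusted p = 0.133) and 0.15 at 11 mM (95% interval 0.01 to 0.28, edgeR adjusted p = 0.0645). The interval at 2 mM stays under a 1.2-fold change, and that at 11 mM reaches just past it.

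Pmaip1, which encodes Noxa, a partner of Mcl1, had 0 counts in each of the 12 libraries. A count of 0 allows up to 3 counts, which is 0.0496 to 0.117 CPM depending on the library. Whether the row could collect reads of the gene is not stated in the sources used here, so no level is given for Noxa transcript.

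Bcl2, the pro-survival protein whose groove BH3-only proteins occupy, also rose. GFP-treated cells had 6.98, 7.0 and 6.41 CPM of Bcl2 in 2 mM glucose and 6.11, 7.28 and 5.69 CPM in 11 mM glucose. ChREBPβ-treated cells had 8.74, 8.68 and 9.85 CPM in 2 mM glucose and 9.0, 8.0 and 8.21 CPM in 11 mM glucose. All libraries labelled ChREBPβ were above all libraries labelled GFP. The log2 fold change was 0.42 at 2 mM (SE 0.10, 95% interval 0.21 to 0.64, edgeR adjusted p = 0.00174) and, in 11 mM glucose, 0.41 (SE 0.10, 95% interval 0.20 to 0.62, edgeR adjusted p = 0.00212). On the current assembly 2 genes of long non-coding RNA overlap Bcl2, and their counts are not given here. As for Bcl2l11, the strand used in counting is not stated in the sources used here. Mcl1, the other pro-survival gene listed, was not analysed here, so these data give the transcript of only 1 of the 2 partners. No transcript lengths were used, and levels in CPM are therefore not compared between genes.

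**Figure D2:**
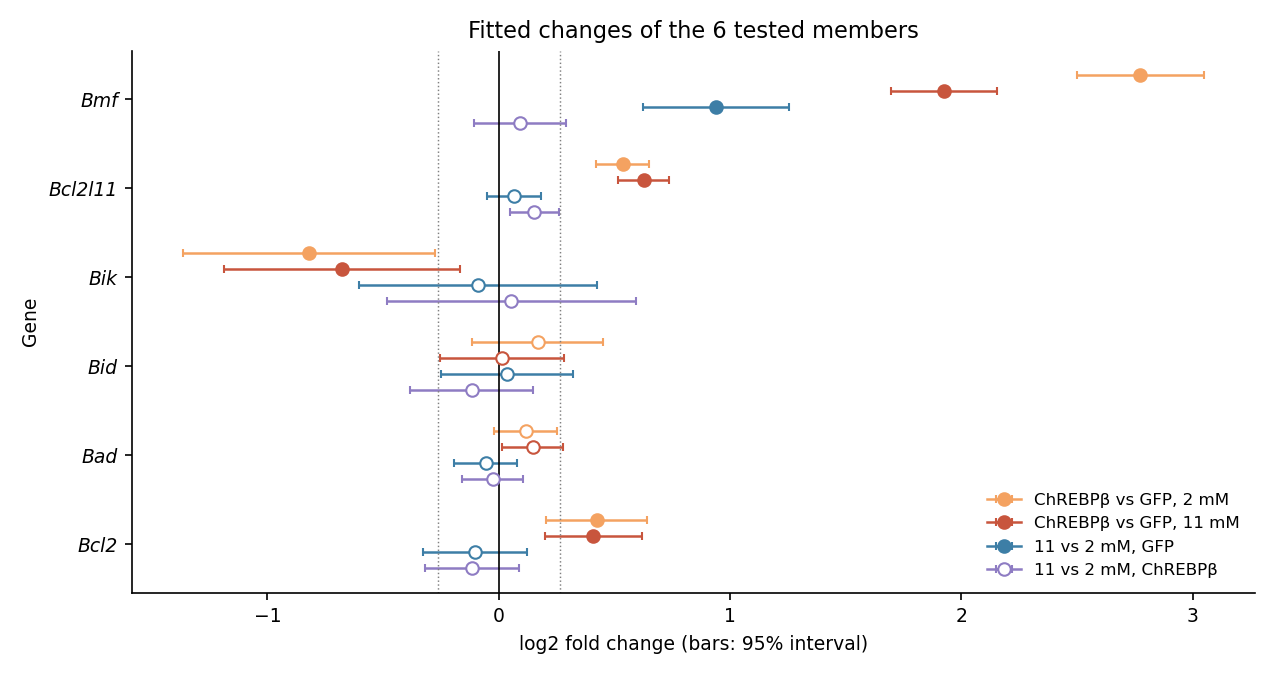
Fitted log2 fold changes (horizontal axis) of the 6 tested members (vertical axis) for ChREBPβ against GFP and for 11 against 2 mM glucose. Bars are 95% intervals from edgeR, filled circles passed the test and the minimum fold change, and dotted lines mark a 1.2-fold change. Bmf stands furthest to the right at 2.77 and 1.92, Bik lies left of 0 for ChREBPβ against GFP, with wide intervals, and only Bmf has a filled circle for glucose, with GFP.

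Glucose alone moved Bmf and no other member past the test. Between 2 and 11 mM in GFP-treated cells Bmf rose 1.92-fold, or by 0.94 in log2 (SE 0.15, edgeR adjusted p = 7.40e-05), and 1 of 6 members was called against 20.2% of all tested genes. The other 5 members had log2 fold changes of -0.10 to 0.06 with adjusted p of 0.403 to 0.867. In ChREBPβ-treated cells edgeR called 0 of 6 members for glucose, against 3.87% of all tested genes, and DESeq2 also called 0. At an unadjusted p under 0.05 there was 1 member, Bcl2l11, whose 3 libraries at 11 mM were above its 3 at 2 mM (log2 fold change 0.15, 95% interval 0.05 to 0.26, edgeR adjusted p = 0.0761). Bmf was at 0.09 in that comparison (95% interval -0.11 to 0.29, edgeR adjusted p = 0.650).

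The effect of ChREBPβ on Bmf was smaller at 11 mM than at 2 mM when the difference itself was tested: the interaction of virus and glucose, in log2, was -0.85 (SE 0.18, 95% interval -1.22 to -0.47, edgeR adjusted p = 0.00542). Bmf was the 1 member of 6 called for the interaction, against 6.31% of all tested genes. For the other 5 members the interaction was -0.15 to 0.14 with adjusted p of 0.561 to 0.973. For Bik, at its low counts, the interval was -0.60 to 0.89.

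Across both factors, ChREBPβ at 11 mM against GFP at 2 mM called 4 of 6 members against 50.5% of all tested genes. Bmf was at 2.86, Bcl2l11 at 0.69, Bik at -0.77 and Bcl2 at 0.31 (edgeR adjusted p = 0.0141 for Bcl2). The call of Bcl2 was lost with library totals (0.19, adjusted p = 0.123) and without library c of GFP at 2 mM (0.27, adjusted p = 0.0538) or library a of ChREBPβ at 11 mM (0.26, adjusted p = 0.0587). ChREBPβ at 2 mM against GFP at 11 mM, which sets the virus against glucose, called the same 4 members against 27.0% of all tested genes, with Bmf at 1.83, Bcl2l11 at 0.47, Bik at -0.73 and Bcl2 at 0.53. There the call of Bik was lost without library b of GFP at 11 mM (-0.50, adjusted p = 0.157), library a of ChREBPβ at 2 mM (-0.60, adjusted p = 0.0866) or library b of ChREBPβ at 2 mM (-0.72, adjusted p = 0.0677). Bad was at 0.17 in this comparison, with an adjusted p of 0.0373 but under the minimum fold change. All 6 comparisons share libraries and are not independent of each other.

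Ordered by mean level, Bmf ran from GFP at 2 mM (1.52 ± 0.21 CPM, SD, n = 3) through GFP at 11 mM (2.90 ± 0.43) and ChREBPβ at 2 mM (10.4 ± 0.55) to ChREBPβ at 11 mM (11.1 ± 0.50), and only the last 2 neighbours did not differ beyond their spread. Bcl2l11 followed the same order, with 28.6 ± 1.27, 29.9 ± 1.40, 41.5 ± 0.79 and 46.1 ± 1.83 CPM, but its GFP groups did not differ from each other, nor did its ChREBPβ groups pass the test. Bik ran the other way, from 0.769 ± 0.19 CPM with ChREBPβ at 2 mM and 0.823 ± 0.078 at 11 mM to 1.33 ± 0.37 with GFP at 11 mM and 1.40 ± 0.14 at 2 mM, and differed only across the step between the viruses. Bcl2 was lowest with GFP at 11 mM (6.36 ± 0.83 CPM) and 2 mM (6.80 ± 0.33) and highest with ChREBPβ at 11 mM (8.40 ± 0.53) and 2 mM (9.09 ± 0.66), again with a difference only between the viruses. For Bid and Bad no neighbours in the order differed.

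The balance of BH3-only transcript to Bcl2 transcript was described by the ratio of their raw counts within each library, which does not depend on scaling. This measure was added after the levels had been seen and was not tested. It leaves out Mcl1 and the other pro-survival genes, so it does not give the balance to all pro-survival partners. For Bmf the ratio was 0.223 ± 0.021 with GFP at 2 mM, 0.465 ± 0.11 with GFP at 11 mM, 1.15 ± 0.13 with ChREBPβ at 2 mM and 1.32 ± 0.098 with ChREBPβ at 11 mM (SD, n = 3). The Bmf ratio was higher in every library labelled ChREBPβ than in any labelled GFP, so Bmf rose more than Bcl2 within the same libraries. For Bcl2l11 the ratio was 4.21 ± 0.11, 4.74 ± 0.39, 4.59 ± 0.40 and 5.50 ± 0.33 in the same order of groups, and it overlapped between the viruses at 2 mM but not at 11 mM. For Bik it was 0.206 ± 0.011, 0.207 ± 0.035, 0.0841 ± 0.016 and 0.0986 ± 0.015, with no overlap between the viruses at either glucose level. For Bid the ratio went from 1.21 ± 0.27 to 1.03 ± 0.058 at 2 mM, with overlap, and from 1.35 ± 0.22 to 1.03 ± 0.095 at 11 mM, without overlap. For Bad it went from 9.38 ± 1.22 to 7.59 ± 0.45 at 2 mM, without overlap, and from 9.77 ± 2.03 to 8.08 ± 0.88 at 11 mM, with overlap. Ratios of different genes are not compared, since they also carry the lengths of the transcripts.

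The 5 genes whose pattern was most like that of Bmf over the 12 libraries were Chsy1, Hes1, Angptl8, Crabp1 and Kif26a. Likeness was the root mean square difference from Bmf in log2 CPM after each gene was centred on its own mean, over the 10466 other tested genes whose mean reached 5 CPM. That difference was 0.13 for Chsy1, 0.14 for Hes1 and for Angptl8, 0.17 for Crabp1 and 0.18 for Kif26a. Chsy1, an enzyme of chondroitin sulfate synthesis, went from 18.7 ± 1.39 and 30.4 ± 0.83 CPM with GFP at 2 and 11 mM to 113 ± 0.64 and 127.5 ± 1.96 with ChREBPβ. Hes1, a transcriptional repressor of the Notch pathway, went from 3.66 ± 0.77 and 6.27 ± 0.76 CPM to 26.5 ± 0.72 and 28.8 ± 1.55. Angptl8, a secreted regulator of lipoprotein lipase, went from 15.7 ± 1.13 and 31.8 ± 4.23 CPM to 104.7 ± 3.96 and 126 ± 11.6. These values describe libraries that share viruses and glucose levels and were not tested.

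**Figure D3:**
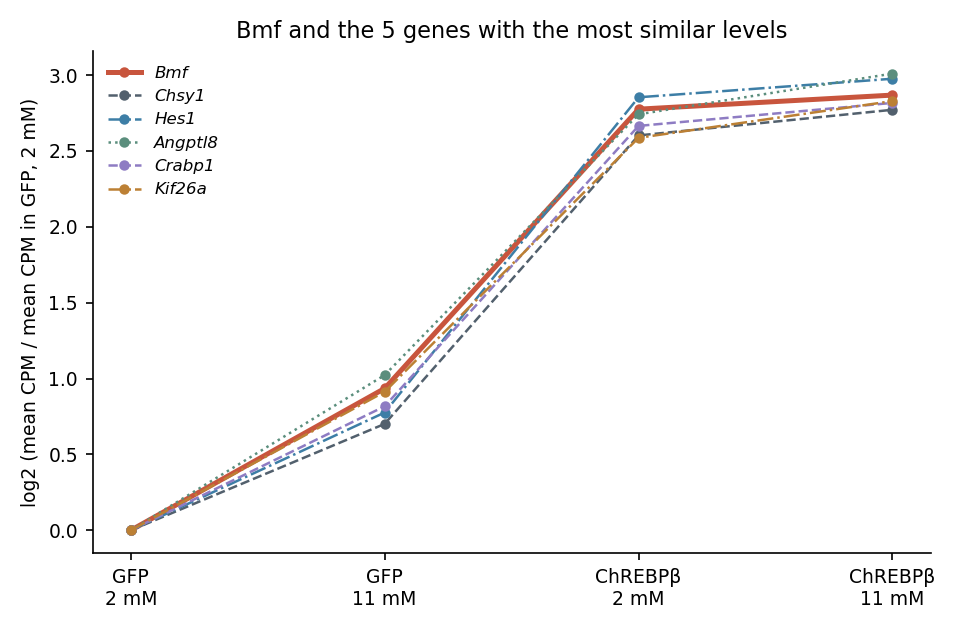
Mean level of Bmf (thick line) and of the 5 genes with the most similar pattern, as log2 of the group mean over the mean with GFP at 2 mM (vertical axis), in the 4 groups (horizontal axis). All 6 lines rise from GFP at 2 mM to GFP at 11 mM and rise further to ChREBPβ at 2 mM. The last step, to ChREBPβ at 11 mM, is smaller. Bmf goes from 10.4 to 11.1 CPM there, and Angptl8 rises by more than Bmf, from 104.7 to 126 CPM.

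The other genes of the pathway were read from 9 lists with 73 genes, of which 71 have a row and 63 were tested. At 2 mM, 11 of the 63 were called higher with ChREBPβ, against 21.0% of all tested genes, and 10 lower, against 23.2%. At 11 mM 10 were called in each direction, against 14.3% of all tested genes higher and 19.1% lower, and the count of each list below stands beside these same shares. The median log2 fold change over the lists was 0.036 at 2 mM and 0.020 at 11 mM. Of the 3 pore-forming effectors, Bak1 rose by 0.46 at 2 mM and 0.42 at 11 mM on the log2 scale (edgeR adjusted p = 1.70e-07 and 6.80e-07), and Bok fell by 0.30 and 0.50. Bax was at 0.20 and 0.22, under the minimum fold change. Among the other pro-survival genes, Bcl2l2, which encodes Bcl-w, fell by 0.35 and 0.32 (edgeR adjusted p = 8.17e-06 and 2.58e-05), while Bcl2l1, which encodes Bcl-xL, was at -0.11 and 0.02. Without library c of GFP at 2 mM, Bok was at -0.25 at 2 mM and was not called.

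Of 8 other BH3-containing or Bcl2-like genes tested, 1 was higher and 1 lower at each glucose level: Bcl2l14 rose by 0.55 and 0.58, and Bnip3, a mitochondrial protein of mitophagy, fell by 0.83 and 0.57. The apoptosome and caspase list had 2 genes higher and 1 lower of 10 tested at 2 mM, and 1 higher and 2 lower at 11 mM. Casp9, the caspase that the apoptosome activates, fell by 0.50 and 0.40, and Casp2 rose by 0.38 and 0.30. Endog, a mitochondrial nuclease, fell by 0.36 at 11 mM and was at -0.10 at 2 mM, and Diablo, an antagonist of caspase inhibitors, rose by 0.34 at 2 mM and was at 0.16 at 11 mM. Of the 5 caspase inhibitors only Birc5 (survivin), which also acts in mitosis, was called, with a rise of 0.59 and 0.44. Of 6 death receptor genes tested, the adaptor Tradd fell by 0.73 and 0.37 and Ripk1 fell by 0.28 at 2 mM and was at -0.22 at 11 mM. Fas was at 0.29 at both glucose levels and was called only at 11 mM (edgeR adjusted p = 0.0564 and 0.0457), a call that was lost with a replicate block (adjusted p = 0.0573), with library totals (adjusted p = 0.147) and without each of 6 libraries in turn (b of GFP at 2 mM, b and c of GFP at 11 mM, c of ChREBPβ at 2 mM, b and c of ChREBPβ at 11 mM), where it lay between 0.20 and 0.30. It was called at 2 mM without library a or b of GFP at 11 mM (adjusted p = 0.0394 and 0.0447). The call of Tradd at 11 mM was lost without library a or c of GFP or b or c of ChREBPβ at 11 mM (-0.36 to -0.33, adjusted p = 0.0894 to 0.111), and that of Ripk1 at 2 mM without library a of GFP or b of ChREBPβ at 2 mM (-0.26 in each).

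Among the binding partners and kinases of BH3-only proteins was Pim1, which changed most of the 63 genes at each glucose level. Pim1, a survival kinase that phosphorylates Bad, rose by 1.57 at both glucose levels (edgeR adjusted p = 2.12e-11 and 1.11e-11), with 9.20 ± 1.55 against 27.1 ± 1.39 CPM in 2 mM glucose and 9.61 ± 1.04 against 28.8 ± 0.80 CPM in 11 mM glucose (SD, n = 3). Its relative Pim2 fell by 1.35 and 1.00 (edgeR adjusted p = 2.54e-14 and 4.89e-12), from 93.1 ± 3.59 to 36.4 ± 1.96 CPM and from 58.0 ± 2.28 to 29.0 ± 1.27 CPM. Mapk9, which encodes the kinase JNK2 that can phosphorylate Bim and Bmf, fell by 0.39 and 0.31. Pim3 rose by 0.32 at 2 mM and was at 0.17 at 11 mM. In all, 2 of these 14 genes were higher and 2 lower at 2 mM, and 1 higher and 2 lower at 11 mM, beside 44.1% and 33.4% of all tested genes called in either direction. Of the dynein light chains that hold Bmf and Bim, Dynll1 was at 0.16 and 0.25 (edgeR adjusted p = 0.00785 and 0.00025), under the minimum fold change, and Dynll2 at -0.0048 and 0.06. Mapk9 was no longer called at 11 mM without library b of GFP at 11 mM (-0.26). Of the 6 genes acting on turnover of Mcl1 protein, edgeR and DESeq2 each called 0 at either glucose level, and 2 had an unadjusted p under 0.05 at each.

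Of 10 tested transcription factors known to act on BH3-only genes, 4 were higher and 2 lower with ChREBPβ at each glucose level, beside 21.0% and 23.2% of all tested genes at 2 mM and 14.3% and 19.1% at 11 mM. Myc rose by 1.49 at 2 mM and 0.44 at 11 mM on the log2 scale (edgeR adjusted p = 2.59e-15 and 2.02e-07), Cebpa by 1.07 and 0.97, and Tp73 by 0.58 and 0.87. Foxo1 fell by 0.53 and 0.37, and Jun fell by 0.44 and 0.48. Of the genes outside the members, Foxo1, Jun, Diablo, Pim3, Bax, Bcl2l1, Dynll1, Dynll2 and, further below, E2f1 are named after their values had been seen.

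**Figure D4:**
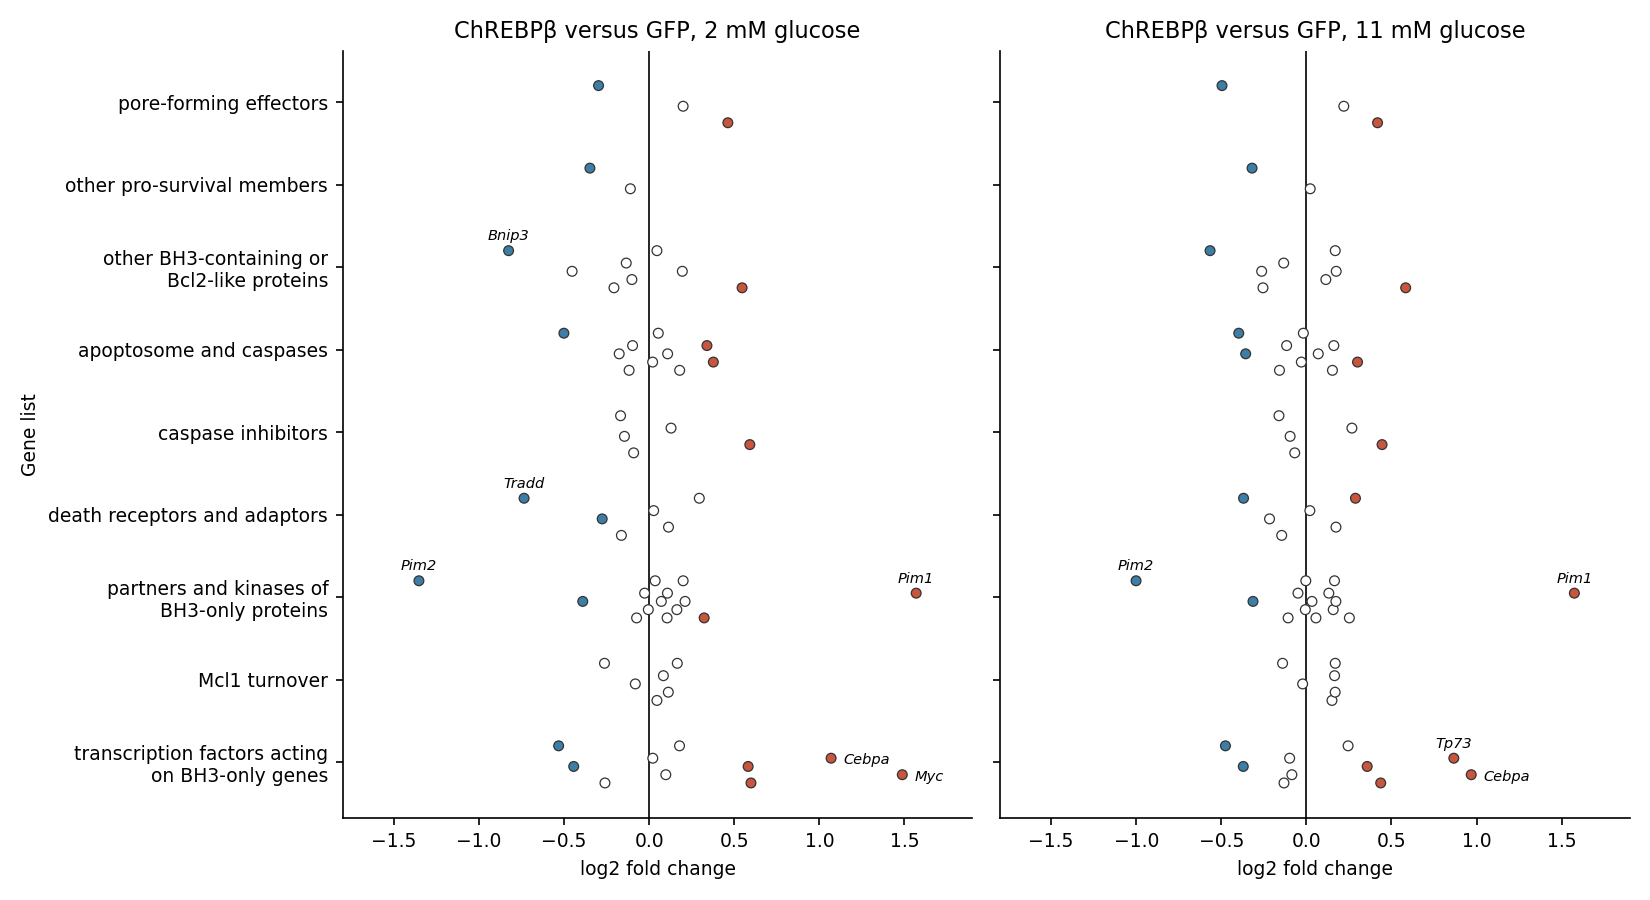
Log2 fold changes (horizontal axis) of the 63 tested pathway genes in their 9 lists (vertical axis), for ChREBPβ against GFP at 2 mM (left) and 11 mM (right). Each circle is a gene, red where it was called higher, blue where called lower and white where not called, and a gene on 2 lists appears on each. Most circles lie near 0, with Pim1 at 1.57 on the right and Pim2 at -1.35 and -1.0 on the left.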

How the data were processed

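RNA of 12 libraries was amplified with the NuGEN Ovation RNA-Seq System V2 and sequenced in paired-end reads, and the authors deposited raw read counts per gene, without normalization. Their processing notes name the build Rnor_6.0 and edgeR, and the aligner, the counting program and the use of strand are not given in the sources used here. The 4 further columns of the table hold the authors' group means, which equal unscaled averages of the 3 libraries in all 28728 rows, and were not used. A row without a name, with 0.0043% to 0.00601% of the counts of a library, was left out, and 26 names that a spreadsheet had turned into dates were kept as they are. Groups follow the labels, which do not say that replicates came from separate cultures. The study's figure legend for these data describes averages over 3 independent experiments. The p-values measure the spread between these libraries.

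Counts were filtered by edgeR 4.0.16 (filterByExpr by group, 14669 genes kept), scaled by TMM factors of 0.958 to 1.057 and fitted for all 12 libraries with edgeR's quasi-likelihood test in R 4.3.3. The 6 comparisons of groups and the interaction were contrasts of that fit, adjusted within each by Benjamini-Hochberg across tested genes. A call needed 1.2-fold, the study's minimum, and an adjusted p under 0.05. SE is the log2 fold change divided by the square root of F, and intervals are 95%. Totals of 25754488 to 60531215 counts set the precision, and 3 counts are 0.0496 to 0.117 CPM. Every member is named, and of each list the 3 called genes with the largest change; 1 list gene is counted but not reported here by name. The members and lists were chosen with earlier results of these data known. Alternatives were RLE factors, library totals, DESeq2 1.42.0, no filter, a filter of 10 counts in each library, no minimum and a 1.5-fold minimum, a replicate block and leaving out each library; for the list genes they were added after the results were seen. Libraries with the same letter did not deviate together: none of 18 same-letter correlations of deviations from group means exceeded 0.1 (-0.114 to 0.064). Low correlations do not settle whether the letters mark matched experiments, and the replicate block covers that case. Plots were drawn with matplotlib 3.10.9 in Python 3.11.15, and RefSeq windows of assembly GRCr8 gave the promoter letters, with no coordinate taken across builds.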

Additional observations from a re-analysis of the deposited data

Results flagged for a closer look

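Over all tested genes, edgeR's test of the interaction called 6.31%. Among the 6 tested members, the 63 tested list genes and Txnip, it called the effect of ChREBPβ different between the glucose levels for 5 genes. These were the member Bmf, the list genes Myc, Pim2 and E2f1, and Txnip. The 5 genes chosen for their likeness to Bmf were not considered here. For Bmf the effect at 11 mM minus that at 2 mM was -0.85 in log2 (SE 0.18, edgeR adjusted p = 0.00542), with effects of 2.77 at 2 mM and 1.92 at 11 mM. Leaving out each library in turn gave -0.94 to -0.74, and the replicate block gave -0.85 (adjusted p = 0.00948). For Myc the difference was -1.05 (edgeR adjusted p = 3.47e-09), with effects of 1.49 and 0.44. For Txnip it was -3.20 (edgeR adjusted p = 7.35e-17), with effects of 4.12 and 0.93, and for Pim2 it was 0.35 (edgeR adjusted p = 0.00554), with effects of -1.35 and -1.0. For E2f1 it was -0.28 (edgeR adjusted p = 0.0143), with effects of 0.18 at 2 mM and -0.10 at 11 mM, neither of them called. In GFP-treated cells glucose alone moved 4 of these genes: Bmf rose by 0.94, Myc by 1.21 and Txnip by 3.74, and Pim2 fell by 0.68 on the log2 scale. E2f1 was at 0.08 there and was not called.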

How the results depend on the processing

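Of 42 member results (6 genes in 6 comparisons and the interaction), all kept direction and side of the threshold with RLE factors, DESeq2, genes kept without a filter or only with 10 counts in each library, and the replicate block. With the replicate block, 4 members were called with ChREBPβ at 2 mM and 4 at 11 mM, as without it, and Bmf was at 2.77 and 1.93. A minimum of 1.5-fold left 2 members called with ChREBPβ at 2 mM and 2 for ChREBPβ at 2 mM against GFP at 11 mM. Library totals turned the sign of results that were not called: Bid with ChREBPβ at 11 mM (-0.069) and for ChREBPβ at 11 mM against GFP at 2 mM (-0.065), Bad in the latter (-0.025), and Bcl2 in the interaction (0.0003).

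Leaving out each library in turn gave 4 to 5 called members at 2 mM, 3 to 4 at 11 mM and 3 to 4 in each of the mixed comparisons of virus and glucose. It turned the sign only of results that were not called, whose ranges of log2 fold change follow. With ChREBPβ, Bid ranged from -0.032 to 0.35 at 2 mM and from -0.028 to 0.095 at 11 mM. For glucose with GFP, Bik ranged from -0.32 to 0.061, Bid from -0.16 to 0.215 and Bad from -0.11 to 0.020. For glucose with ChREBPβ, Bik ranged from -0.073 to 0.23 and Bad from -0.059 to 0.011. For ChREBPβ at 11 mM against GFP at 2 mM, Bid ranged from -0.15 to 0.23. In the interaction, Bik ranged from -0.008 to 0.37, Bid from -0.33 to 0.047, Bad from -0.047 to 0.080 and Bcl2 from -0.091 to 0.087. The causes were not tested.

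Of 46 results for the 23 called list genes, 0 changed sign under any alternative. Not all 46 had been called: the calls were 11 higher and 10 lower at 2 mM, and 10 in each direction at 11 mM. A minimum of 1.5-fold lost 29 of these calls. Library totals lost the calls of Diablo (0.24) and Pim3 (0.22) at 2 mM and of Casp2 (0.22) and Fas (0.20) at 11 mM, and passed Ripk1 at 11 mM (-0.30). List genes outside these 23 were not part of this check. Over the whole lists at 11 mM, DESeq2 called 4 of 14 partners and kinases, where edgeR called 3. It called 7 of 10 transcription factors, where edgeR called 6. Depth limits Bik and Bmf with GFP most, at 16 to 65 and 40 to 151 reads per library. Depth went with the virus: libraries labelled GFP held 25754488 to 46654823 counts. Of those labelled ChREBPβ, library a at 2 mM held 28595982 counts and the others 57088794 to 60531215. The TMM factors were 1.014 to 1.057 with GFP and 0.958 to 0.977 with ChREBPβ.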
